A study of Mus musculus with 8 samples.

Results

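Mov10, Samhd1, Apobec3, Adar, Zc3hav1, Trex1 and Tex19.1 are mouse genes whose proteins restrict retroelements, the mobile sequences that copy themselves through RNA. They were taken from the gene count table of the series by matching its Ensembl identifiers, without version, to these 7 symbols, and all 7 of them were found among the 47643 genes of the table. The measurement was polyA RNA sequencing of mouse embryonic stem cells of the E14 line, on a 129/Ola background. The groups were Dgcr8_KO, Drosha_KO, Ago1_2_KO, in which Ago1 and Ago2 are both deleted, and WT, with 2 libraries each. All 8 libraries came from cells kept for at least 2 weeks in 2i, a serum-free medium (N2B27) with LIF and the inhibitors CHIR99021 and PD0325901. The labels do not say how many clones or separate cultures each genotype stands for, so a p-value here measures the spread between libraries, which may be technical.

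MicroRNA precursors are released in the nucleus by the Microprocessor, in which the RNase Drosha works with the RNA-binding protein Dgcr8. Ago1 and Ago2 are Argonaute proteins, which carry mature microRNAs to their targets. Retroelements are held down at several steps. In the nucleus, histone and DNA methylation silence their transcription, and in the cytoplasm restriction factors bind, edit or degrade their RNA or the DNA copied from it. Mov10 encodes an RNA helicase that restricts LINE-1 elements and retroviruses and that also associates with Argonaute. Apobec3 encodes a cytidine deaminase that edits or blocks nascent retroviral DNA, and Zc3hav1 encodes ZAP, a zinc-finger protein that binds CpG-rich RNA. Tex19.1 is expressed in germ cells, placenta and embryonic stem cells and restrains LINE-1 mobilization in the mouse. Adar deaminates adenosines in double-stranded RNA, Samhd1 removes deoxynucleotides, and Trex1 digests cytosolic DNA from its 3′ end.

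In GRCm38, the build of the submitters' processing notes, the genes lie on different chromosomes apart from Mov10 and Adar, which are both on chromosome 3. Mov10 (ENSMUSG00000002227.15) spans chr3:104794836-104818563 on the minus strand. Apobec3 (ENSMUSG00000009585.17) spans chr15:79891659-79915906 on the plus strand, Zc3hav1 (ENSMUSG00000029826.14) spans chr6:38305286-38354603 on the minus strand, and Tex19.1 (ENSMUSG00000039329.8) spans chr11:121146143-121148319 on the plus strand. Adar (ENSMUSG00000027951.16) spans chr3:89715022-89753446 on the plus strand, Samhd1 (ENSMUSG00000027639.16) spans chr2:157097533-157135265 on the minus strand, and Trex1 (ENSMUSG00000049734.9) spans chr9:109057933-109059734 on the minus strand.

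The RefSeq promoter windows of GRCm38.p6 run from 250 bases before to 50 bases after an annotated start. All 7 genes matched, with 12 windows in all. The windows below are from Mov10, Apobec3 and Zc3hav1, the genes that were higher in Drosha_KO and Ago1_2_KO than in Dgcr8_KO, with the third window of Adar, the other window with a match to the motif searched. Mov10 and Apobec3 have 2 windows each, of which the one with the lower coordinates is shown, and the other held no match. Capitals mark the core of the interferon-stimulated response element, GAAANNGAA, or its reverse complement, TTCNNTTTC.
Mov10, chr3:104818256-104818555, minus strand: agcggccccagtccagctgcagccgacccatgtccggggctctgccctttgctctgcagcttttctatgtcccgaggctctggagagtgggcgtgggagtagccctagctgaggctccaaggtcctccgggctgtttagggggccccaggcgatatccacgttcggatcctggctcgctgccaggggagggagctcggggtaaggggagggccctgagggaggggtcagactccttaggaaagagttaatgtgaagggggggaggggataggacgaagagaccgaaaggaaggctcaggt
Apobec3, chr15:79892158-79892457, plus strand: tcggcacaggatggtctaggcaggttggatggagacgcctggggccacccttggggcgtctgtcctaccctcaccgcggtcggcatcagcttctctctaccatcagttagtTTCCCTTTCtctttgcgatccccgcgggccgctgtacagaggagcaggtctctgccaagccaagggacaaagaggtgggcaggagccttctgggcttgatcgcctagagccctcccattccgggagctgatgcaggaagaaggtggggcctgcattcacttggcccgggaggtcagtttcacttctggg
Zc3hav1, chr6:38354554-38354853, minus strand: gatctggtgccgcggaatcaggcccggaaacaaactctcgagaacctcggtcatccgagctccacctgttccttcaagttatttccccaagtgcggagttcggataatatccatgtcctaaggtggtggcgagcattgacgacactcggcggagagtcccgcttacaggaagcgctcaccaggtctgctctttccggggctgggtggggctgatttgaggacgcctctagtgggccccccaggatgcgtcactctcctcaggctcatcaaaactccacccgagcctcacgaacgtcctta
Adar, chr3:89730468-89730767, plus strand: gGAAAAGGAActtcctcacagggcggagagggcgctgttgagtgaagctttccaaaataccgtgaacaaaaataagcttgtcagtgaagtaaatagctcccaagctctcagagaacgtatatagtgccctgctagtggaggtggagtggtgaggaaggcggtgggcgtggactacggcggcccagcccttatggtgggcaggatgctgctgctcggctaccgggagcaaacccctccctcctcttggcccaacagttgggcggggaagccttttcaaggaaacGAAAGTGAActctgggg

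The motif was present in 2 of the 12 windows. Apobec3 held 1 match on the reverse strand, 139 bases before the start, and the third window of Adar held 2 matches on the forward strand. Among all windows of the same length, 8.56% of 32851 held the motif on either strand. CpG dinucleotides numbered 13 in the Mov10 window shown and 9 in its other window, 13 in the Apobec3 window shown and 4 in its other, and 20 in that of Zc3hav1. The Tex19.1 window held 16, the Samhd1 window 29, the Adar windows 6, 34 and 12, and the Trex1 windows 5 and 7, against a median of 7 over all windows. These letters are a description of the annotated starts and say nothing of which start these cells used.

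MicroRNA seed matches were searched because each knockout is labelled as lacking a part of the microRNA pathway. The sequences below are the mature forms of microRNAs known to be abundant in mouse embryonic stem cells, with the seed (bases 2 to 8) in capitals.
mmu-miR-294-3p, chromosome 7: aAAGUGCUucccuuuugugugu
mmu-miR-17-5p, chromosome 14: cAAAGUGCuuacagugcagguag
mmu-miR-19b-3p, chromosome 14: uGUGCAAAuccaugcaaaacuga
mmu-miR-92a-3p, chromosome 14: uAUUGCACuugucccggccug

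The seed of miR-294-3p is shared with miR-291a-3p and miR-295-3p. The match to it, AGCACTT, was in none of the longest annotated 3′ UTRs of 6 of the genes, Trex1 having none of 50 bases or more, while 14.9% of 20676 genes carried it. GCACTTT, the match to miR-17-5p, was absent from the same 6 and present in 12.0% of all genes. TTTGCAC, the match to miR-19b-3p, occurred in the UTRs of Samhd1 and Adar, and in 11.7% of all genes. GTGCAAT, the match to miR-92a-3p, occurred in that of Zc3hav1, and in 6.67% of all genes. The Mov10 and Apobec3 UTRs, 313 and 1437 bases long, held none of the 4 matches.

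Library totals ranged between 13229771 and 26333907 counts. The 8 markers of naive stem cells summed to 4799.8 to 5773 CPM, a gene count divided by the TMM-scaled library total, over the libraries, and fibroblast markers to 6.80 to 16.0 CPM. Summed levels of the 8 trophoblast markers, 5 of which passed the filter on low counts, were lower in Dgcr8_KO (50.3 to 53.0 CPM) than in WT (90.5 to 104 CPM). Tfap2c had the highest level of the 8, at 27.8 to 84.5 CPM over all libraries, with Elf5 and Hand1 at or near 0 throughout. Summed levels of the 8 endoderm markers, 3 of which passed that filter, were higher in Ago1_2_KO (80.9 to 91.2 CPM) than in WT (37.5 to 38.7 CPM), most of it Lamb1, with Afp, Sox7 and Foxa2 at or near 0. The part of these markers in the results was not tested. In bulk RNA, fewer cells of a type and less RNA per cell cannot be told apart. Drosha was at 51.2 and 82.4 CPM in Drosha_KO, against 278 and 266 CPM in WT. Dgcr8 was higher in Dgcr8_KO (392 and 370.2 CPM) than in WT (78.1 and 70.5 CPM). It was also higher in Drosha_KO (304 and 234 CPM), and was at 91.2 and 82.9 CPM in Ago1_2_KO. Ago1 overlapped between Ago1_2_KO (160.2 and 87.8 CPM) and WT (106 and 63.3 CPM). The mRNA levels of Dgcr8 and Ago1 thus did not check the labels Dgcr8_KO and Ago1_2_KO, which stand below for the libraries so labelled. Ago2 was at 216 and 195 CPM in Ago1_2_KO, against 464 and 227 CPM in WT. The libraries of WT and of Drosha_KO differed more between replicates, with 2427 and 2250 genes more than 2-fold apart, than those of Ago1_2_KO with 707 and Dgcr8_KO with 580.

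Mov10 mRNA was higher in Drosha_KO and Ago1_2_KO than in WT and lower in Dgcr8_KO, and its mean level had the widest fold range of the 7 genes across genotypes. Its level was 453 and 443 CPM in Drosha_KO, 397 and 449 CPM in Ago1_2_KO and 107 and 104 CPM in Dgcr8_KO, against 159.7 and 184 CPM in WT. Both Dgcr8_KO libraries lay below both WT libraries. Every Drosha_KO and Ago1_2_KO library lay above every WT library, and no genotypes overlapped apart from Drosha_KO and Ago1_2_KO. In RPKM, which divides CPM by exon length in kilobases, Mov10 averaged 80.0 ± 1.3 in Drosha_KO, 75.4 ± 6.5 in Ago1_2_KO, 18.8 ± 0.47 in Dgcr8_KO and 30.6 ± 3.0 in WT (SD, n = 2 each).

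Against WT, Mov10 rose 2.61-fold in Drosha_KO (log2 fold change 1.38 ± 0.18 SE, adjusted p = 0.00312, edgeR quasi-likelihood test). It rose 2.46-fold in Ago1_2_KO (1.30 ± 0.18, adjusted p = 0.00264). In Dgcr8_KO it fell by 0.70 on the log2 scale (SE 0.18), with an adjusted p of 0.0497 that lies at the threshold of 0.05. These comparisons share the WT libraries. The Dgcr8_KO call was lost with an offset for GC content, which moved the log2 fold change to -0.25 (adjusted p = 0.373). Across 16315 genes the Dgcr8_KO change against WT fell with exon GC content (Spearman correlation -0.44, a description across genes that share libraries), and Mov10 has 57.3% GC against a median of 49.7% over all genes tested. The call was also lost with DESeq2 size factors (adjusted p = 0.0526), with library size alone (0.0681), with only the groups compared (0.0896), and without either Dgcr8_KO library, either Ago1_2_KO library or WT replicate 2, and its direction was kept in all 17 alternatives. The rises in Drosha_KO and Ago1_2_KO kept their call in all 17.

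**Figure D1:**
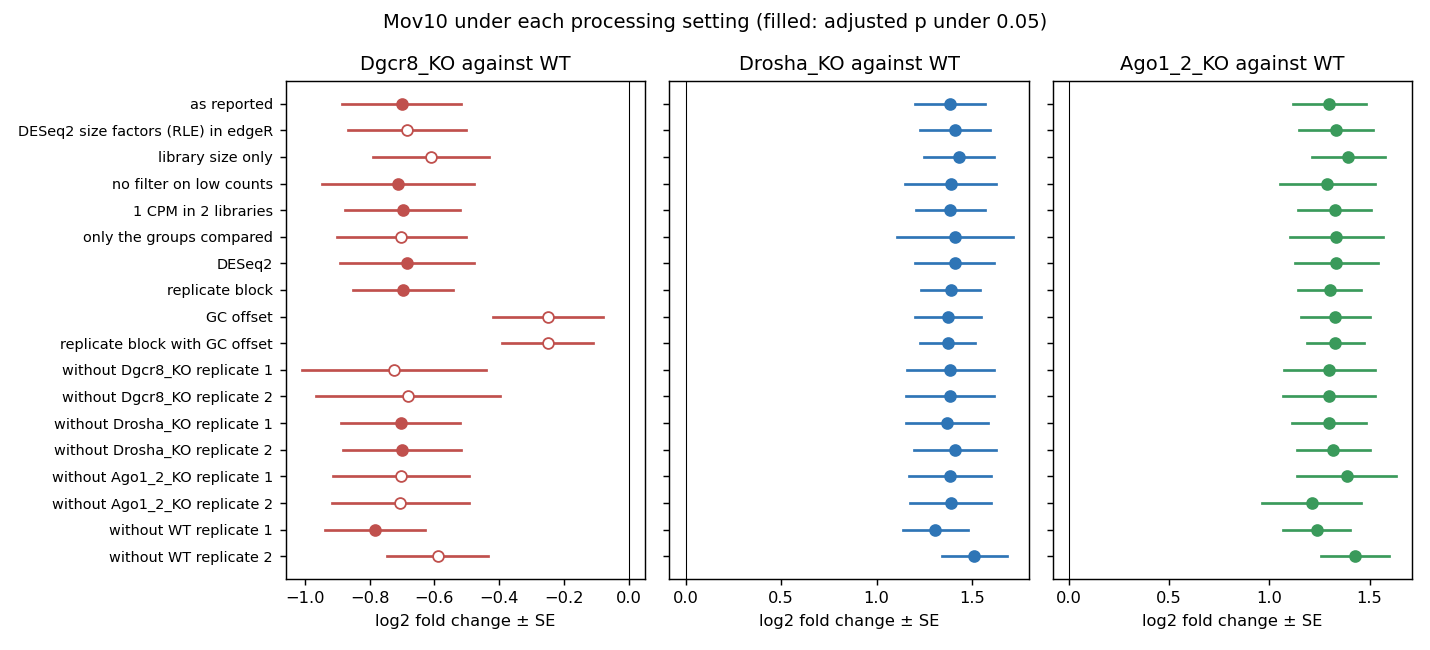
Mov10 log2 fold change (points) ± SE (lines) in each knockout against WT, as reported and under each of the 17 processing alternatives; filled points have an adjusted p under 0.05. The Drosha_KO and Ago1_2_KO values stay filled between 1.21 and 1.51, while Dgcr8_KO moves to -0.25 with a GC offset and is open in 10 alternatives.

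Apobec3 was higher in the same genotypes. Its level was 241 and 184 CPM in Drosha_KO, 271 and 272 CPM in Ago1_2_KO and 105 and 98.7 CPM in Dgcr8_KO, against 109.5 and 122 CPM in WT. The Dgcr8_KO libraries lay just below both WT libraries. The Ago1_2_KO libraries were nearly equal, whereas those of Drosha_KO lay further apart, and both genotypes stayed above all WT and Dgcr8_KO libraries. Against WT, Apobec3 rose 2.35-fold in Ago1_2_KO (log2 fold change 1.23 ± 0.19 SE, edgeR adjusted p = 0.00404) and 1.84-fold in Drosha_KO (0.88 ± 0.19, adjusted p = 0.0206). The Drosha_KO call was lost with only the groups compared (adjusted p = 0.114), without Drosha_KO replicate 1 (0.103) and without either Dgcr8_KO library (0.0518 and 0.0528), with log2 fold changes between 0.67 and 0.90. In Dgcr8_KO the difference from WT was -0.19 on the log2 scale (95% interval -0.61 to 0.24), which did not pass the test. Apobec3 shares 676 exon bases, 7.15% of its own, with the noncoding gene D730005E14Rik on the same strand, which was not analysed here, so reads there may have been counted for either gene or for neither. It shares 100 exon bases with Cbx7 on the opposite strand, and Cbx7, at 186 to 253 CPM, was not called in any comparison.

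Zc3hav1 was at 193 and 215 CPM in Drosha_KO, 184 and 190.4 CPM in Ago1_2_KO and 98.5 and 105 CPM in Dgcr8_KO, against 161 and 115 CPM in WT. Dgcr8_KO was again below both WT libraries. No genotypes overlapped, but the WT libraries were further apart than those of any knockout. No Zc3hav1 difference from WT passed the test: the log2 fold change was 0.56 ± 0.20 SE in Drosha_KO (edgeR adjusted p = 0.0979), 0.44 ± 0.20 in Ago1_2_KO (0.152) and -0.44 ± 0.20 in Dgcr8_KO (0.174). Without WT replicate 1 the Drosha_KO and Ago1_2_KO values were 0.85 and 0.74, with adjusted p-values of 0.0119 and 0.0151. Zc3hav1 makes a long and a short ZAP protein from alternative transcript ends, which gene counts do not separate.

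Tex19.1 was lowest in Ago1_2_KO and highest in Dgcr8_KO, the reverse of Apobec3. Its level was 42.7 and 37.5 CPM in Ago1_2_KO, 56.7 and 47.8 CPM in Drosha_KO and 74.5 and 69.4 CPM in Dgcr8_KO, against 49.9 and 64.2 CPM in WT. Ago1_2_KO lay below and Dgcr8_KO above both WT libraries, while Drosha_KO overlapped WT. None of these passed the test against WT, with log2 fold changes of -0.51 (95% interval -0.97 to -0.05, adjusted p = 0.111, edgeR) in Ago1_2_KO, -0.13 in Drosha_KO and 0.34 in Dgcr8_KO. Leaving out WT replicate 1 gave a call in Ago1_2_KO (-0.64, adjusted p = 0.0363). Mouse has a related copy, Tex19.2, and how the counting treated reads that fit both is not known, so the Tex19.1 counts are uncertain to that extent.

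Adar was at 69.4 and 64.7 CPM in Drosha_KO, 64.5 and 66.5 CPM in Ago1_2_KO and 86.3 and 75.4 CPM in Dgcr8_KO, against 98.6 and 74.9 CPM in WT. Drosha_KO and Ago1_2_KO lay below both WT libraries and Dgcr8_KO lay between them. The log2 fold changes were -0.37 (95% interval -0.81 to 0.07) in Drosha_KO, -0.40 (-0.85 to 0.04) in Ago1_2_KO and -0.10 (-0.54 to 0.34) in Dgcr8_KO, with edgeR adjusted p-values of 0.232, 0.173 and 0.753. Gene counts do not separate the interferon-inducible p150 transcript of Adar from the constitutive p110 form. Adar shares 1365 exon bases (16.8% of its exons) with Chrnb2 on the opposite strand, which was at 0.374 to 1.52 CPM.

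Samhd1 was at 79.4 and 58.4 CPM in Drosha_KO, 74.3 and 68.2 CPM in Ago1_2_KO and 57.7 and 62.1 CPM in Dgcr8_KO, against 72.6 and 59.1 CPM in WT. All 3 knockouts overlapped WT. The log2 fold changes were 0.06 (95% interval -0.41 to 0.54), 0.11 (-0.36 to 0.59) and -0.14 (-0.61 to 0.34) in Drosha_KO, Ago1_2_KO and Dgcr8_KO, and none passed the edgeR test.

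Trex1 was the lowest of the 7 genes, with 48 to 119 counts per library. Its level was 3.01 and 4.61 CPM in Drosha_KO, 3.10 and 4.49 CPM in Ago1_2_KO and 3.17 and 3.05 CPM in Dgcr8_KO, against 4.40 and 5.08 CPM in WT. Dgcr8_KO lay below both WT libraries and the other knockouts overlapped WT. The log2 fold changes were -0.31 (95% interval -1.14 to 0.52), -0.33 (-1.17 to 0.50) and -0.61 (-1.45 to 0.23) in Drosha_KO, Ago1_2_KO and Dgcr8_KO, and at this depth none was distinguishable from WT. All 1147 exon bases of Trex1 lie within exons of Atrip on the same strand, so its counts are uncertain; Atrip itself was at 9.13 to 15.3 CPM and was not called against WT.

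**Figure D2:**
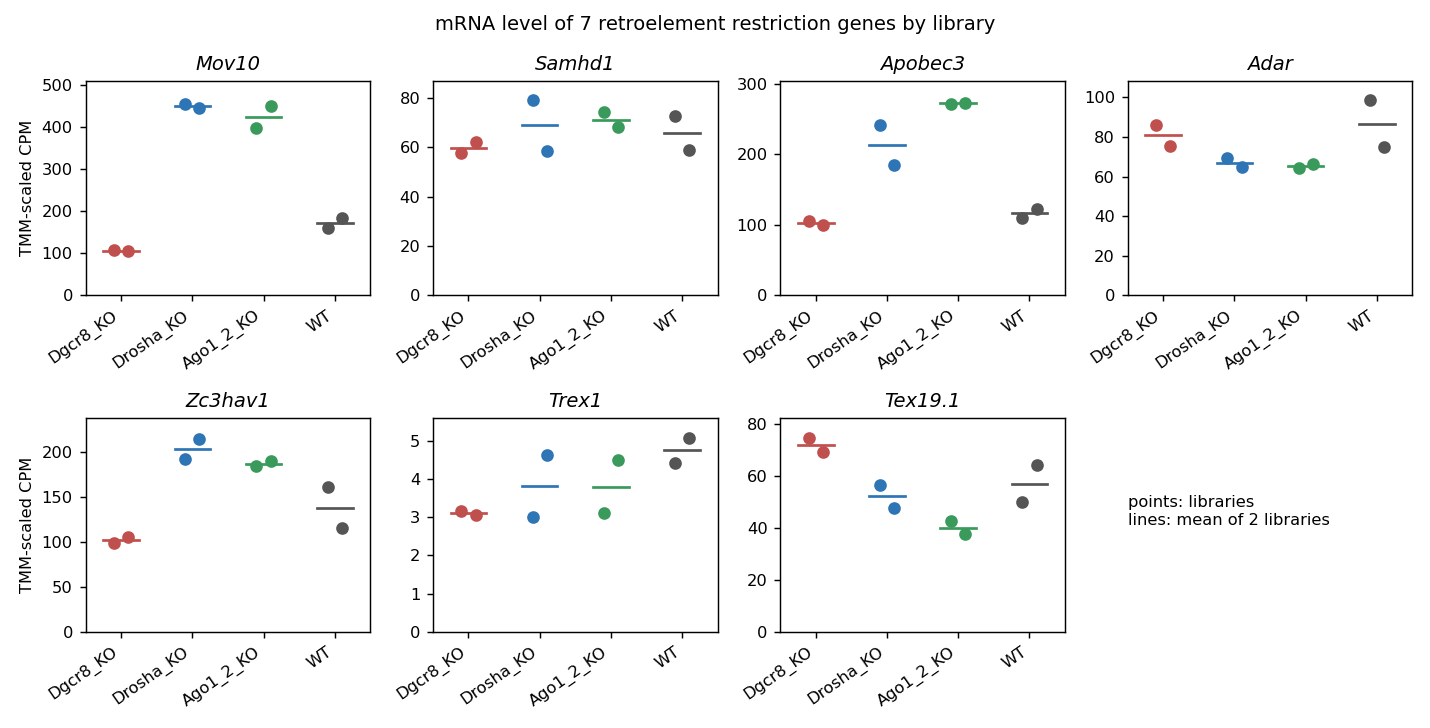
Level of each gene in TMM-scaled CPM (y axis, from 0) in the 2 libraries of each genotype (points) with their mean (line). Mov10 and Apobec3 lie higher in every Drosha_KO and Ago1_2_KO library than in any WT or Dgcr8_KO library, and Samhd1 overlaps between all 3 knockouts and WT.

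Per length, the WT levels in RPKM were 30.6 for Mov10, 30.5 for Tex19.1, 21.2 for Zc3hav1, 12.2 for Apobec3, 10.7 for Adar, 7.20 for Samhd1 and 4.13 for Trex1, with SDs between 0.42 and 5.4 (n = 2). Mov10 and Tex19.1 did not differ beyond their spread in WT, nor did Apobec3 and Adar. In Dgcr8_KO the order changed at the top, with Tex19.1 at 38.4 ± 1.9 RPKM and Mov10 at 18.8 ± 0.47 RPKM. In Ago1_2_KO, Mov10 at 75.4 ± 6.5 RPKM was followed by Apobec3 at 28.7 ± 0.086 and Zc3hav1 at 28.7 ± 0.69, with Tex19.1 at 21.4 ± 2.0 (SD, n = 2 each).

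Read against the whole table, 1 of the 7 genes was called in Dgcr8_KO against WT, where 6.93% of the 16388 genes tested were called and 4.48% were lower. In Drosha_KO, 2 of 7 were called, both higher, where 11.4% of all genes were called and 6.54% were higher. In Ago1_2_KO, 2 of 7 were called, both higher, where 17.6% were called and 10.2% were higher. The median log2 fold change of the 7 genes was -0.19 in Dgcr8_KO, 0.06 in Drosha_KO and 0.11 in Ago1_2_KO, beside -0.03, -0.02 and -0.02 over all genes tested. All 7 genes passed the filter on low counts.

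**Figure D3:**
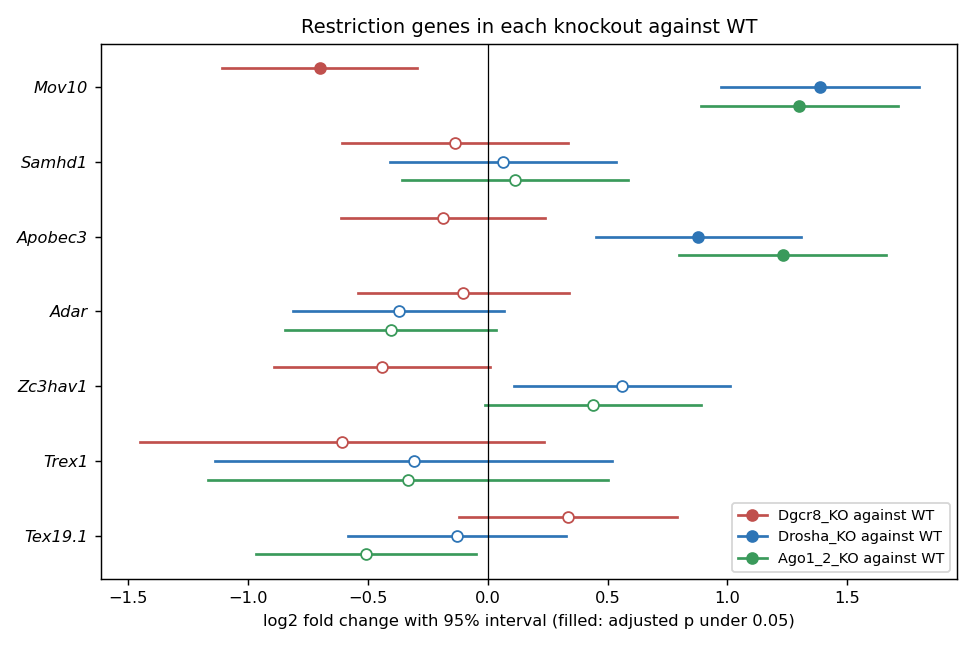
Log2 fold change (x axis) with its 95% interval for each gene in Dgcr8_KO, Drosha_KO and Ago1_2_KO against WT, from edgeR; filled points have an adjusted p under 0.05. Mov10 is filled in all 3 knockouts, below 0 in Dgcr8_KO and above 0 in the others, and Apobec3 is filled in Drosha_KO and Ago1_2_KO.

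The knockouts were also compared with each other, which tests the difference between them without the WT libraries as a reference. Both comparisons with Dgcr8_KO share its libraries. Mov10 was 4.25-fold higher in Drosha_KO than in Dgcr8_KO (log2 fold change 2.09 ± 0.19 SE, edgeR adjusted p = 0.000565) and 4.0-fold higher in Ago1_2_KO than in Dgcr8_KO (2.00 ± 0.19, adjusted p = 0.000483). Both calls held in all 17 alternatives, with log2 values lowered to 1.62 and 1.58 at the least, by the GC offset. Over all genes these comparisons correlated with exon GC content too (Spearman correlation 0.43 and 0.37, across genes). Apobec3 rose 2.09-fold in Drosha_KO against Dgcr8_KO (1.06 ± 0.19, adjusted p = 0.00774) and 2.67-fold in Ago1_2_KO against Dgcr8_KO (1.42 ± 0.19, adjusted p = 0.00195). The first of these calls was lost without either Dgcr8_KO library (adjusted p = 0.0905 and 0.0990), while the second was kept in all 17 alternatives.

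Zc3hav1, which did not pass the test against WT, rose 2.00-fold in Drosha_KO against Dgcr8_KO (log2 fold change 1.00 ± 0.20, edgeR adjusted p = 0.0122) and 1.84-fold in Ago1_2_KO against Dgcr8_KO (0.88 ± 0.20, adjusted p = 0.0172). Tex19.1 fell by 0.84 on the log2 scale in Ago1_2_KO against Dgcr8_KO (SE 0.21, adjusted p = 0.0220), and its value in Drosha_KO against Dgcr8_KO, -0.46, did not pass (adjusted p = 0.150). The Zc3hav1 and Tex19.1 calls were lost without any of the 4 libraries of Ago1_2_KO or Dgcr8_KO in Ago1_2_KO against Dgcr8_KO, and the Zc3hav1 call in Drosha_KO against Dgcr8_KO was lost without either Dgcr8_KO library or Drosha_KO replicate 2. Adar, Samhd1 and Trex1 were not called, with log2 values between -0.30 and 0.30. In Drosha_KO against Dgcr8_KO, 3 of the 7 genes were called, all higher, where 15.4% of all genes were called and 9.67% were higher. In Ago1_2_KO against Dgcr8_KO, 3 were higher and 1 lower, where 17.1% were called, 11.6% higher and 5.54% lower.

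In Ago1_2_KO against Drosha_KO, none of the 7 genes was called by edgeR, none had an unadjusted p under 0.05, and DESeq2 called none, where 0.732% of all genes were called. The Mov10 difference was -0.08 on the log2 scale (95% interval -0.49 to 0.32) and that of Zc3hav1 was -0.12 (-0.57 to 0.33). Apobec3 differed by 0.35 (-0.07 to 0.78) and Tex19.1 by -0.38 (-0.84 to 0.08). A miss of the threshold does not show that the genotypes are alike, and differences up to these bounds remain possible.

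**Figure D4:**
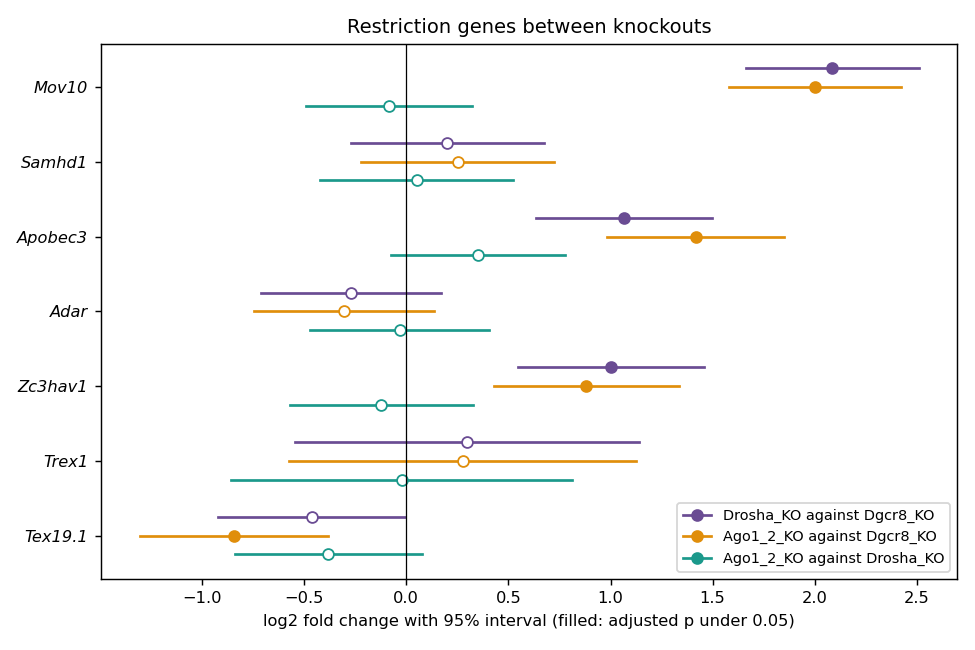
Log2 fold change (x axis) with its 95% interval for each gene in Drosha_KO against Dgcr8_KO, Ago1_2_KO against Dgcr8_KO and Ago1_2_KO against Drosha_KO, from edgeR; filled points have an adjusted p under 0.05. Mov10, Apobec3 and Zc3hav1 are filled above 0 in both comparisons with Dgcr8_KO, Tex19.1 is filled below 0 in Ago1_2_KO against Dgcr8_KO, and no point is filled in Ago1_2_KO against Drosha_KO.

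Across the 8 libraries, 2 to a genotype, the log2 CPM of Mov10 followed that of Apobec3 (Pearson r = 0.94) and of Zc3hav1 (0.92) and ran against those of Tex19.1 (-0.79) and Adar (-0.75). Samhd1 and Trex1 followed Mov10 less closely (0.48 and 0.16). These coefficients describe 2 libraries of each of 4 genotypes and carry no test. The closest genes were sought among 10315 or 10316 others with a mean of at least 5 CPM. Symbols of predicted, RIKEN or clone genes and those ending in a point and digits were left out. The closest to Mov10 were Ppp2r3d (r = 0.999), Tnfsfm13 (0.995) and Coro2b (0.994). Coro2b, which encodes an actin-binding coronin, was at 72.3 and 67.3 CPM in Drosha_KO, 78.9 and 93.4 CPM in Ago1_2_KO and 6.07 and 6.10 CPM in Dgcr8_KO, against 11.9 and 16.6 CPM in WT. The closest to Apobec3 were Obsl1 (0.995), Cdhr1 (0.995) and Tmem106a (0.992), and the closest to Zc3hav1 were Tead4 (0.996), a transcription factor of the Hippo pathway, Tmcc2 (0.994) and Htra1 (0.990). Tex19.1 was closest to Pwp1 (0.990), Lpar6 (0.976) and Rbm18 (0.974). Adar was closest to Iars (0.949), Mdm2 (0.946) and Pm20d1 (0.941), Samhd1 to Map4k3 (0.924), Fam208b (0.909) and Kcnk1 (0.886), and Trex1 to Lzts2 (0.959), Epn1 (0.958) and Rpusd3 (0.95).

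The wider pathway was read from 5 lists of 79 genes, of which 68 passed the filter on low counts. The first holds 10 cofactors of ZAP, MOV10 and TEX19.1, among them Trim25, the ubiquitin ligase that ZAP needs, Khnyn, its nuclease partner, and Upf1, a helicase that binds MOV10. None of the 10 was called by edgeR in any of the 6 comparisons of the fit as reported, with the filter on low counts and no covariate. In Drosha_KO against WT, 3 had an unadjusted p under 0.05 and DESeq2 called 2 higher, where it called 16.3% of all genes. With the replicate block edgeR called 3 higher in Drosha_KO and 1 in Ago1_2_KO against WT. That setting called 17.6% and 24.7% of all genes there. The counts were the same with the GC offset added to the block, beside 18.9% and 25.3% of all genes. They were also the same without the filter on low counts, beside 12.5% and 16.2% of all genes. Without WT replicate 1, genes of the list were called higher in all 3 knockouts against WT, and more of all genes were called too. With only the groups compared, 2 were higher and 1 lower in Ago1_2_KO against Dgcr8_KO, where 45.9% of all genes were called. Trim25 averaged 243 CPM in Drosha_KO and 151 CPM in WT (log2 fold change 0.68 ± 0.21, edgeR adjusted p = 0.0603). The median of the list was 0.03 in Drosha_KO and -0.06 in Ago1_2_KO against WT, close to the all-gene medians of -0.02 and -0.02.

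Of 14 relatives of the 7 genes, 10 were tested. In Drosha_KO against WT 3 were higher and 1 lower, in Ago1_2_KO 4 were higher, and in Dgcr8_KO 1 was lower. Of all genes tested, 6.54% were higher and 4.83% lower in Drosha_KO, 10.2% higher in Ago1_2_KO and 4.48% lower in Dgcr8_KO. Parp12, a ZAP-like zinc-finger poly(ADP-ribose) polymerase, was at 81.8 and 29.1 CPM in Drosha_KO and 65.0 and 57.4 CPM in Ago1_2_KO, against 14.5 and 8.61 CPM in WT. It rose by 2.26 on the log2 scale in Drosha_KO (SE 0.44, edgeR adjusted p = 0.0137) and 2.41 in Ago1_2_KO (SE 0.44, adjusted p = 0.00790). Leaving out Drosha_KO replicate 1 lowered the first to 1.34 and ended its call, and leaving out WT replicate 2 ended both. Helz2, a helicase related to Mov10, rose by 2.30 in Ago1_2_KO against WT (SE 0.52, edgeR adjusted p = 0.0180), at 7.32 and 7.86 CPM in Ago1_2_KO against 2.37 and 0.726 CPM in WT. Tiparp, another poly(ADP-ribose) polymerase, rose by 1.02 in Drosha_KO, and Apobec2, a muscle deaminase-like gene, by 1.13 in Ago1_2_KO (edgeR adjusted p = 0.0450 and 0.0426). Tiparp was at 108 and 60.7 CPM in Drosha_KO, against 48.5 and 34.3 CPM in WT. Apobec2 was at 76.7 and 78.9 CPM in Ago1_2_KO, against 21.2 and 49.7 CPM in WT. The Helz2 and Apobec2 calls were lost without either Ago1_2_KO library. The Apobec2 call was also lost without either Dgcr8_KO library and with only the groups compared. With 1 library left out, the Helz2 value ran from 1.70 to 3.41, the latter without WT replicate 1. That of Apobec2 ran from 0.68 to 1.90, the latter without WT replicate 2. The Tiparp call was lost in 8 of the 17 alternatives, and its value was 0.55 at the least with 1 library left out. Apobec1, the cytidine deaminase that edits apolipoprotein B RNA, was at 8.92 and 9.09 CPM in Dgcr8_KO and 13.0 and 18.0 CPM in Drosha_KO, against 43.1 and 25.2 CPM in WT. It fell by 1.92 on the log2 scale in Dgcr8_KO (SE 0.30, adjusted p = 0.0102) and by 1.13 in Drosha_KO (SE 0.29, adjusted p = 0.0357), so the deaminase genes Apobec1 and Apobec3 moved in opposite directions in Drosha_KO. The Apobec1 call in Dgcr8_KO was lost without either Dgcr8_KO library, and that in Drosha_KO in 7 alternatives. The median of the list was 0.51 in Drosha_KO and 0.86 in Ago1_2_KO against WT. Against Dgcr8_KO, 2 were higher in Drosha_KO and 5 in Ago1_2_KO, where 9.67% and 11.6% of all genes were higher. Both were led by Parp12 at 3.04 and 3.18, which held in all 17 alternatives, the first at 2.12 without Drosha_KO replicate 1.

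Of 14 RNases, nucleases and nucleic acid sensors, all tested, 3 were higher in Drosha_KO and 4 in Ago1_2_KO against WT, and 1 was lower in Dgcr8_KO. The shares of all genes were 6.54% and 10.2% higher and 4.48% lower in these comparisons. Zbp1, a sensor of Z-form nucleic acids, was at 25.2 and 6.43 CPM in Drosha_KO and 27.9 and 31.1 CPM in Ago1_2_KO, against 3.78 and 1.45 CPM in WT. It rose by 2.60 on the log2 scale in Drosha_KO (SE 0.62, edgeR adjusted p = 0.0277) and 3.5 in Ago1_2_KO (SE 0.63, adjusted p = 0.00737). The Ago1_2_KO call held in all 17 alternatives, with values from 2.98 to 4.37 when 1 library was left out, the latter without WT replicate 1. The Drosha_KO call was lost without Drosha_KO replicate 1 (1.31), without WT replicate 2 and with only the groups compared. Ifih1, which encodes the RNA sensor MDA5, rose by 3.24 in Drosha_KO (edgeR adjusted p = 0.0316), at 4.71 and 1.51 CPM in Drosha_KO against 0.564 and 0.0967 CPM in WT, a call lost in 6 alternatives, with values of 2.22 without Drosha_KO replicate 1 and 4.92 without WT replicate 1. Tmem173, which encodes STING, was called higher in Ago1_2_KO (1.40 ± 0.30, adjusted p = 0.0160), at 12.8 and 15.6 CPM in Ago1_2_KO against 5.81 and 4.93 CPM in WT, a call lost without either Ago1_2_KO library or WT replicate 2. Bst2, which encodes the antiviral tether tetherin, fell by 2.57 in Dgcr8_KO (SE 0.46, adjusted p = 0.0159), at 4.06 and 4.51 CPM in Dgcr8_KO against 13.4 and 37.5 CPM in WT, a call lost without either Dgcr8_KO library and lowered in size to -1.64 without WT replicate 2. Against Dgcr8_KO, 5 of the list were higher in Drosha_KO and 6 in Ago1_2_KO, and none was lower. The shares of all genes were 9.67% and 11.6% higher and 5.74% and 5.54% lower. Zbp1 was higher by 3.96 in Drosha_KO and 4.86 in Ago1_2_KO, and Bst2 by 2.23 in Drosha_KO. Both Drosha_KO calls were lost without either Dgcr8_KO library, and the Zbp1 value in Drosha_KO was 2.67 without Drosha_KO replicate 1 and 4.65 without replicate 2. Eif2ak2, which encodes the RNA-activated kinase PKR, was among them, at 70.6 and 61.4 CPM in Ago1_2_KO against 29.9 and 26.8 CPM in Dgcr8_KO (1.22 ± 0.25, adjusted p = 0.0113), a call lost without any of these 4 libraries.

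Of the nuclear silencing list, with 24 genes tested, 1 gene was called in Dgcr8_KO, 2 in Drosha_KO and 2 in Ago1_2_KO against WT, all higher, where 6.93%, 11.4% and 17.6% of all genes were called. Without WT replicate 1, 10 were higher in each knockout and 2, 0 and 1 lower in Dgcr8_KO, Drosha_KO and Ago1_2_KO, where 24.8%, 23.4% and 29.0% of all genes were called. The replicate block gave 5, 5 and 4 higher and 1 lower in each, where it called 17.1%, 17.6% and 24.7% of all genes. Ehmt2, which encodes the histone H3 lysine methyltransferase G9a, was at 162 and 134 CPM in Drosha_KO and 153 and 172 CPM in Ago1_2_KO, against 77.8 and 95.4 CPM in WT. It rose by 0.77 and 0.91 on the log2 scale (edgeR adjusted p = 0.0324 and 0.0144). The Ago1_2_KO call was lost without either Ago1_2_KO library, and the Drosha_KO call in 6 alternatives. Atf7ip, the partner of the methyltransferase SETDB1, was at 185 and 171 CPM in Drosha_KO and 167 and 168 CPM in Ago1_2_KO, against 98.6 and 53.4 CPM in WT, and rose by 1.23 and 1.14 (adjusted p = 0.0203 and 0.0202). Both were lost with only the groups compared, the first also without Drosha_KO replicate 1 and the second without either Ago1_2_KO library. Zfp809, a zinc-finger protein that recruits silencing to murine leukaemia virus sequences, was called in Dgcr8_KO (1.04 ± 0.25, adjusted p = 0.0408), at 66.8 and 65.1 CPM in Dgcr8_KO against 39.0 and 25.2 CPM in WT, a call lost in 7 alternatives, the GC offset among them. The other 23 genes in Dgcr8_KO and 22 in each of Drosha_KO and Ago1_2_KO did not pass against WT. Against Dgcr8_KO, Ehmt2 was called in Drosha_KO (1.24) and Ago1_2_KO (1.37), and Morc2a, a silencing ATPase, was lower in Ago1_2_KO (-0.71). With the GC offset the Ehmt2 values were 0.61 and 0.74, and the Drosha_KO call was lost, as it was without either Dgcr8_KO library. The Morc2a call was lost without any of the 4 libraries compared and with library size alone.

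Of 17 genes derived from retroelements, 10 were tested. Peg10, a gag-pol-derived imprinted gene needed in placenta, was at 156 and 163 CPM in Dgcr8_KO, 58.9 and 41.0 CPM in Drosha_KO and 39.5 and 24.5 CPM in Ago1_2_KO, against 12.5 and 4.64 CPM in WT. It was called higher in all 3 knockouts against WT, with log2 fold changes of 4.22, 2.55 and 1.91 in Dgcr8_KO, Drosha_KO and Ago1_2_KO (edgeR adjusted p = 0.00258, 0.00771 and 0.0166). The first 2 calls held in all 17 alternatives, and the third was lost without Ago1_2_KO replicate 1. The values moved with the WT library left out, to 5.11, 3.45 and 2.82 without WT replicate 1 and 3.67, 2.02 and 1.38 without WT replicate 2. Arc, which encodes a capsid-forming neuronal protein, was at 11.4 and 11.8 CPM in Dgcr8_KO against 32.2 and 62.1 CPM in WT and fell by 2.02 (SE 0.34, adjusted p = 0.0138), a call lost without either Dgcr8_KO library. Pnma2, another gag-derived gene, fell by 1.17 in Dgcr8_KO (SE 0.30, adjusted p = 0.0470), at 2.96 and 3.62 CPM in Dgcr8_KO against 8.35 and 6.48 CPM in WT, a call lost in 8 alternatives. Asprv1, a retroviral-like protease of skin, was called higher in Ago1_2_KO (1.70 ± 0.48, adjusted p = 0.0374), at 3.66 and 3.89 CPM in Ago1_2_KO against 0.847 and 1.45 CPM in WT, a call lost in 6 alternatives. Against Dgcr8_KO, Peg10 was lower in Drosha_KO (-1.67) and Ago1_2_KO (-2.31), while Arc (2.72 and 2.85) and Pnma2 (1.14 and 1.96) were higher in both. The Arc calls held in all 17 alternatives. The Peg10 call in Drosha_KO was lost without either Dgcr8_KO library or Drosha_KO replicate 2, and that in Ago1_2_KO without Ago1_2_KO replicate 2. The Pnma2 call in Drosha_KO was lost in 7 alternatives, and that in Ago1_2_KO without Dgcr8_KO replicate 1.

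**Figure D5:**
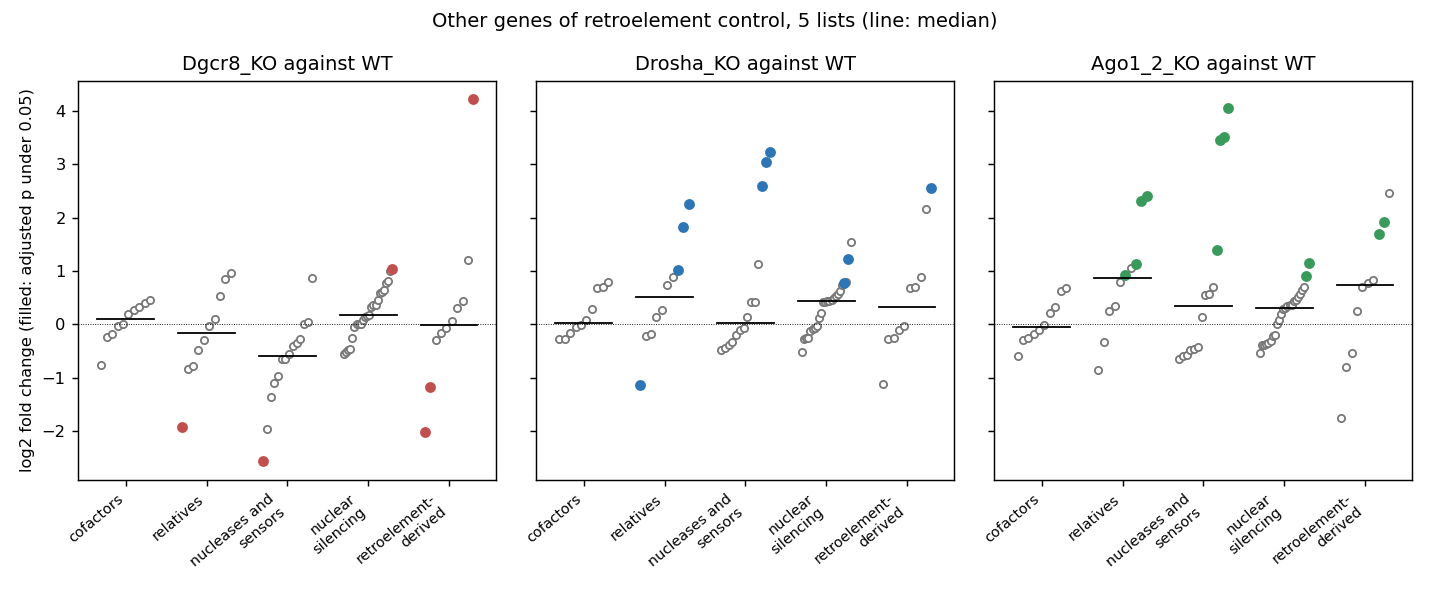
Log2 fold change (y axis) of every tested gene of the 5 lists in Dgcr8_KO, Drosha_KO and Ago1_2_KO against WT, in order of value within a list, with the list median (line); filled points have an edgeR adjusted p under 0.05. No cofactor is filled, and the largest filled value is Peg10 in Dgcr8_KO at 4.22.

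Over the 68 tested genes of the lists, 6 were called in Dgcr8_KO, 10 in Drosha_KO and 12 in Ago1_2_KO against WT, shares of 8.82%, 14.7% and 17.6% beside 6.93%, 11.4% and 17.6% of all genes. Against Dgcr8_KO, 11 were called in Drosha_KO (16.2%, beside 15.4% of all genes) and 17 in Ago1_2_KO (25%, beside 17.1%). None was called in Ago1_2_KO against Drosha_KO by edgeR, where 3 had an unadjusted p under 0.05 and DESeq2 called 1. Of the 45 calls of list genes named by the rule, over the 6 comparisons, 11 held in all 17 alternatives, 34 were lost without at least 1 library, and none changed direction.

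The counts over the lists moved with individual libraries, as did the share of all genes called. Without WT replicate 1 they were 25, 27 and 31 in Dgcr8_KO, Drosha_KO and Ago1_2_KO against WT, where 24.8%, 23.4% and 29.0% of all genes were called. In Dgcr8_KO against WT, 1 gene was called without either Dgcr8_KO library, beside 0.234% and 0.349% of all genes without replicates 1 and 2. In Drosha_KO against WT, 2 were called without Drosha_KO replicate 1 (4.16% of all genes), 5 without either Dgcr8_KO library (6.01% and 5.94%) or Ago1_2_KO replicate 1 (6.25%), and 6 without Ago1_2_KO replicate 2 (6.26%) or WT replicate 2 (6.98%). In Ago1_2_KO against WT, 3 were called without Ago1_2_KO replicate 1 (4.06%) and 4 without Ago1_2_KO replicate 2 (3.25%). In Drosha_KO against Dgcr8_KO, 3 and 2 were called without Dgcr8_KO replicates 1 and 2 (1.87% and 1.99%), and 18 without either WT library (22.8% and 22.6%). In Ago1_2_KO against Dgcr8_KO, 7 were called without either Dgcr8_KO library (3.0% and 3.38%) and 9 without either Ago1_2_KO library (6.43% and 4.24%).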

How the data were processed

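Reads were aligned with STAR 2.4.2a to mm10 (GRCm38), per the submitters' processing notes; the extract protocol in the labels is a reverse-stranded TruSeq kit on polyA RNA. The authors deposited 1 table of raw counts per gene for 8 libraries; for its counter, strand setting and annotation the sources used here give nothing. Symbols were taken from a reference list of gene names, and from GENCODE M21 where that list had none. GENCODE M21 matched 47224 of 47643 identifiers, 39106 of them in the same version, and overlaps and exon lengths come from it. Promoter and microRNA sequences are from RefSeq.

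Counts were tested in R 4.3.3 with edgeR 4.0.16, using its quasi-likelihood F test with robust dispersion, TMM scaling and filterByExpr by genotype, which left 16388 genes. All 8 libraries entered 1 fit with a mean per genotype and no covariate, and 6 comparisons were read from it. P-values were adjusted by Benjamini and Hochberg over all genes tested, and a call is an adjusted p under 0.05. The SE is the log2 fold change divided by the square root of F. CPM are TMM-scaled, RPKM divide them by exon length, and correlations use log2 CPM with a prior count of 2. The test was checked on counts simulated for Drosha_KO against WT. It recovered 19% of 2-fold and 71% of 4-fold changes, with 7 false calls among 15996 genes. Real changes of about 2-fold could therefore often miss the threshold. DESeq2 1.42.0 and 16 other settings were alternatives, with a GC offset fitted on exon GC.

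The genes and lists were chosen with earlier results of these data known. Named from each list are the called genes with the smallest p, at most 3 in each comparison, and for each of the 7 genes the 3 genes most correlated with it. The values of 1 list gene that this rule names are not reported here. The cofactors Trim25, Khnyn and Upf1, the fibroblast, trophoblast and endoderm genes named, Coro2b values and the seed search were added after the values were seen, as were the overlapping genes. The gene counts give no retroelement transcripts, which were not analysed here.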

Additional observations from a re-analysis of the deposited data

How the results depend on the processing

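The results were recomputed under 17 alternatives. Of the 7 genes, the number called in Dgcr8_KO against WT was 1 as reported and 0 with DESeq2 size factors, library size only, only the groups compared, the GC offset, or the replicate block with the GC offset. In Drosha_KO against WT it was 2 as reported and 1 with only the groups compared. Leaving out each library in turn moved the number of the 7 genes called against WT and against Dgcr8_KO. The share of all genes called moved too, and was highest in each comparison with WT without WT replicate 1. In Ago1_2_KO against Drosha_KO none of the 7 was called without any library. Where this left a genotype with 1 library, that library was assumed to vary like the others. With the replicate block, the counts were 1, 2 and 2 in Dgcr8_KO, Drosha_KO and Ago1_2_KO against WT, 3 and 4 in Drosha_KO and Ago1_2_KO against Dgcr8_KO, and 0 in Ago1_2_KO against Drosha_KO, as without it. Of all genes, that setting called 17.1%, 17.6% and 24.7% against WT, 20.5% and 22.1% against Dgcr8_KO, and 0.964% in Ago1_2_KO against Drosha_KO. The labels do not say that replicate numbers pair libraries, and same-numbered deviations correlated at 0.0963 to 0.245 over 16388 genes. No call changed direction, and the scalings moved the median of all genes by less than 0.1 on the log2 scale. Beyond the named settings the cause of a lost call was not tested.

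Over the genes of the lists, the replicate block gave 13, 18 and 20 calls in Dgcr8_KO, Drosha_KO and Ago1_2_KO against WT, against 6, 10 and 12 as reported. No filter on low counts gave 12, 21 and 23 of 77 genes tested, where 11.8%, 12.5% and 16.2% of all genes were called. DESeq2 gave 17 in Drosha_KO against WT, where it called 16.3% of all genes. Only the groups compared gave 3 in Drosha_KO against WT and 31 in Ago1_2_KO against Dgcr8_KO, against 17 as reported. Under that setting 3.77% and 45.9% of all genes were called in these comparisons. The replicate block with the GC offset gave 19 and 20 in Drosha_KO and Ago1_2_KO against WT. It called 18.9% and 25.3% of all genes there. In Ago1_2_KO against Drosha_KO, no filter gave 2 and DESeq2 gave 1, where 2.37% and 2.21% of all genes were called. Of all genes, the replicate block called 17.1%, 17.6% and 24.7% in Dgcr8_KO, Drosha_KO and Ago1_2_KO against WT, against 6.93%, 11.4% and 17.6% as reported. With 2 libraries a genotype, small changes of Trex1, the gene with the fewest counts, were not detectable. The list counts under these settings were added after the data were seen.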
